A study of Mus musculus with 11 samples.

Results

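The 4 liver sections labelled 48 h (A to D) were compared with 3 sections labelled uninjured (0 h, numbered 2, 3 and 4), out of 11 sections in the time course. The 48 h tissue came from mice given an intraperitoneal injection of acetaminophen (APAP) after a 12 h fast, and the 0 h tissue from mice without injury. Whether the 0 h mice were fasted is not stated, so feeding may differ between the groups. Per the study's methods the animals were wild-type C57BL/6JCrl mice aged 8 to 12 weeks, male unless stated otherwise, and no transgene or Cre allele is given for either group. Each section was cut from snap-frozen liver and placed on a Visium slide, which captures the 3′ ends of mRNA in barcoded spots 55 µm across and counts molecules by unique molecular identifiers (UMIs). The methods list 1 liver per time point and the labels name no animal, so the sections of a group may share a mouse, p-values measure the spread between sections, and mouse and time cannot be told apart. Members were the sections with these labels, and counts were summed over spots under tissue with at least 800 genes and at most 20% mitochondrial UMIs, which left 16962 of the 25136 passing spots of the series.

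Acetaminophen is oxidised by pericentral hepatocytes, chiefly through Cyp2e1, to a reactive quinone imine that depletes glutathione and kills the cells around central veins. In mice, clearance of the dead cells by phagocytes, division of the surviving hepatocytes and closure of the wound follow over the next days. A Visium spot holds several cells of different types, so a section total mixes all liver cells, and fewer cells of a type cannot be told apart from less RNA per cell.

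The sections held 43600556 to 67045372 UMIs, with 1490 to 3466 passing spots each. Mitochondrial UMIs made up 4.10% to 6.0% of the total at 0 h and 2.35% to 3.06% at 48 h. The hepatocyte markers Alb, Ttr, Apoa1, Hnf4a and Cyp2e1 summed to at least 65276 CPM in every section, so the label liver matched the data. No pair of sections of a group agreed within counting noise (mean squared deviation per gene at least 40.6 times that of sampling), and all were kept as separate samples. Levels are CPM, the UMIs of a gene relative to the total of its section in the usual sequencing unit, scaled by the trimmed mean of M values. Wherever 7 values follow each other they are 0 h sections 2, 3 and 4 and then 48 h sections A, B, C and D.

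The mitosis list had the largest median change of the lists described below, and promoters of cell cycle genes are known for short shared elements, so those of 2 mitotic kinases and of a replication gene are shown, with that of an interferon gene from a list that moved little. Sequences are RefSeq promoters of build GRCm38.p6, from 250 bases before to 50 bases after a transcription start, read 5′ to 3′ on the gene's strand. Capitals mark the cell cycle homology element TTTGAA and the CCAAT box in Cdk1 and Plk1, the E2F element TTTGGCGC in Mcm6, and the interferon-stimulated response element (TTTC, 2 bases of any kind and TTTC again) in Isg15, each searched on both strands. The marked elements do not overlap in the first 3 promoters, but matches of the interferon element overlap each other in Isg15.
Cdk1 (chr10:69352863-69353162, minus strand): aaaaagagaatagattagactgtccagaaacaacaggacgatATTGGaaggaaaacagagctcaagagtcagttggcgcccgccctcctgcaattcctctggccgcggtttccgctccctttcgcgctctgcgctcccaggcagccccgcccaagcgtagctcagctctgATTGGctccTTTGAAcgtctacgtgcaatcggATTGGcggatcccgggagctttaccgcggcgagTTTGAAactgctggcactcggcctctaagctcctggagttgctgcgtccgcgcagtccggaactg
Plk1 (chr7:122159185-122159484, plus strand): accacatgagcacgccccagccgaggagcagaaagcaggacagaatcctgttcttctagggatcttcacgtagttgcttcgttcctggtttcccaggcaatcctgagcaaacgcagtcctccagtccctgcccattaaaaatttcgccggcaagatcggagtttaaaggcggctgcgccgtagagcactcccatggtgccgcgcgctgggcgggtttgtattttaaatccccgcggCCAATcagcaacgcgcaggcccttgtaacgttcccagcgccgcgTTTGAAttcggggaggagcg
Mcm6 (chr1:128359656-128359955, minus strand): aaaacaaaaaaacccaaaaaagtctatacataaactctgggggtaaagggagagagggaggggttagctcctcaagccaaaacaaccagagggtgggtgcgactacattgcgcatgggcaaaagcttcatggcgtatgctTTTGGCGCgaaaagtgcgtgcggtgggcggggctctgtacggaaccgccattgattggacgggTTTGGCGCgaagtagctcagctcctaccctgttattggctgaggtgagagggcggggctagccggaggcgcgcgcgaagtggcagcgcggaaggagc
Isg15 (chr4:156200769-156201068, minus strand): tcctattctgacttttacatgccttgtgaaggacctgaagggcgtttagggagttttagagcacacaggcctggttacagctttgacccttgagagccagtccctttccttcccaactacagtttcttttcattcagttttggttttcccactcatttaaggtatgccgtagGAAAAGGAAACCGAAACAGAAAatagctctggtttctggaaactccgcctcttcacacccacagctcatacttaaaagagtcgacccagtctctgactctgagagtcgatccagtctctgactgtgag

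TTTGAA stood in 37 of 47 promoters (78.7%) of the 45 mitosis genes that matched the table, out of 52 listed, against 17.9% of all 32851 promoters and 12.8% of those of DNA replication genes. CCAAT stood in 74.5% of the mitosis promoters and 37.4% of all, but also in 80% of those of cholesterol synthesis, 65.5% of the P450 system and 61.7% of DNA replication. TTTGGCGC was in 14.9% of 47 promoters of 39 DNA replication genes against 0.514% of all, and TTTCCCGC, a second E2F element, in 12.8% against 1.07%. The interferon element was in 53.1% of 32 promoters of 28 interferon-stimulated genes against 3.44% of all, and the antioxidant element TGACNNNGC in 36.7% of 30 promoters of NRF2 targets against 12.4%. A match says only that these letters lie in the window, and the shares describe the lists whatever their level in these sections.

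Of 14821 genes tested, 6552 (44.2%) were called between 48 h and 0 h by edgeR's quasi-likelihood test at a Benjamini-Hochberg adjusted p under 0.05. At 48 h 3451 genes (23.3%) were higher and 3101 (20.9%) lower, and 2049 rose and 651 fell by at least 2-fold. The groups did not overlap in CPM for 54.4% of genes. With so many genes changing, the scaling matters: under plain division by the total count the median gene moved by 0.54 on the log2 scale rather than 0.01, and 60.2% of genes were higher and 4.04% lower. All changes below, apart from UMIs per spot, are therefore relative to the median gene. Of 61 gene lists the medians of 16, all below 0 and named where they occur, turned above 0 under total-count scaling. Summed over the lists, 522 members were called higher and 471 lower. Under that scaling they were 850 and 160, so counts of falls depend on it. Fold changes are log2 values from the fit, with their SE where one is given, and a bare value before an adjusted p is a log2 fold change.

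**Figure D1:**
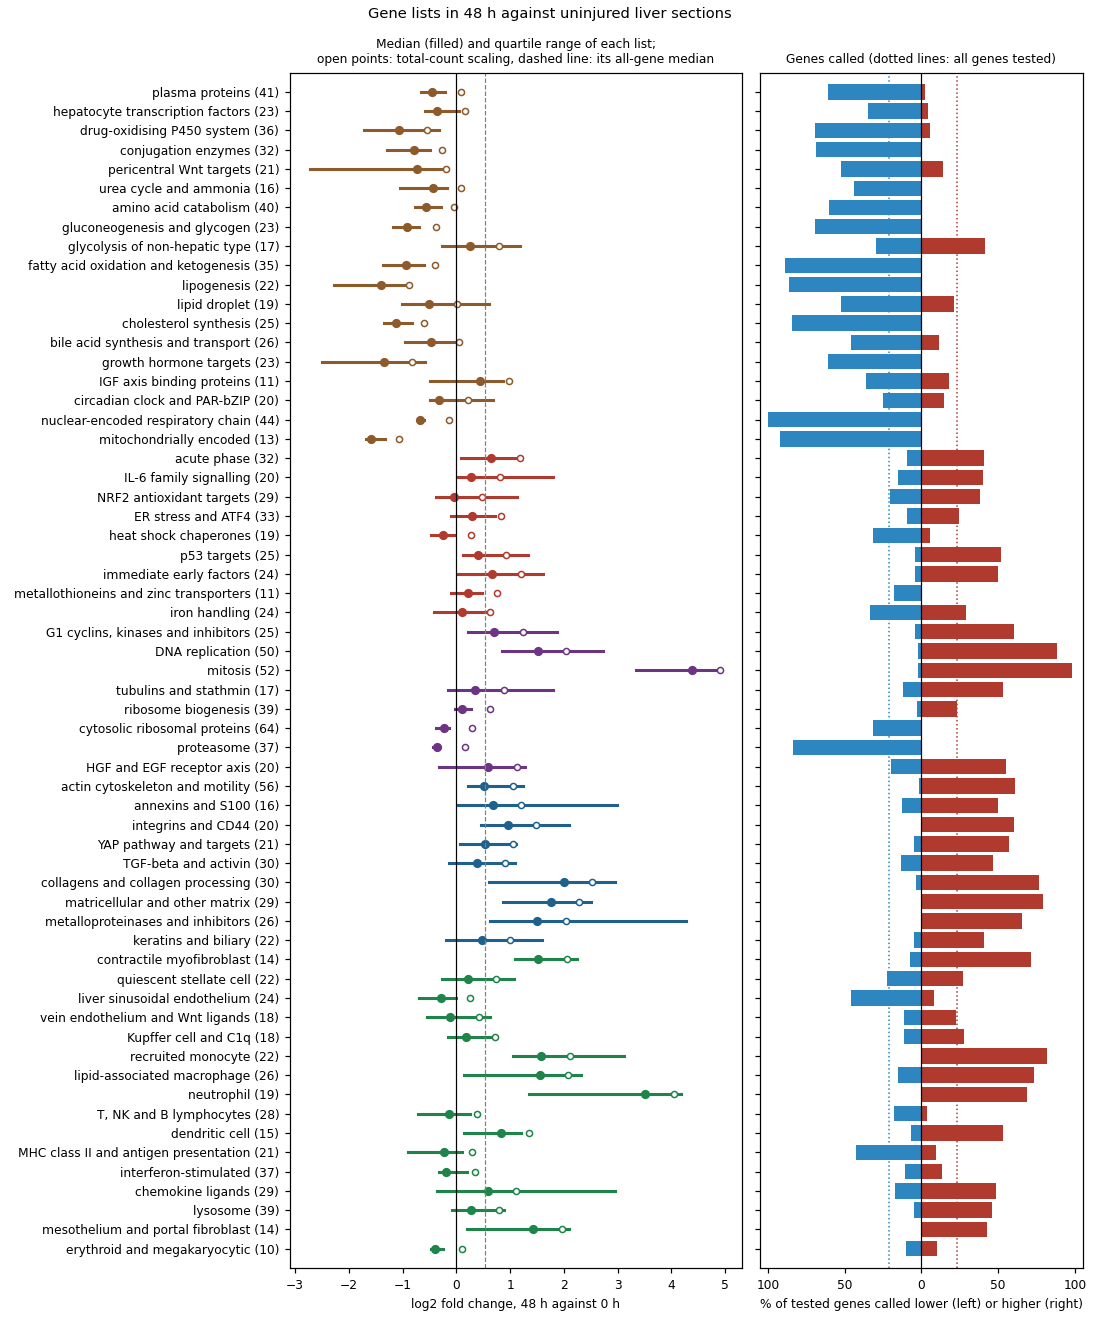
Left, median (filled point) and quartile range (line) of the log2 fold change of 48 h against 0 h for the tested genes of each of 61 lists, with the number of genes in brackets and the median under total-count scaling as an open point; right, the percentage of each list called lower (left, blue) or higher (right, red), with dotted lines at the shares over all genes tested. Mitosis sits at a median of 4.39, while lipogenesis, P450 and mitochondrial lists lie below 0.

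Hepatocyte genes were lower in many lists. The 5 hepatocyte markers summed to 107353 to 112362 CPM at 0 h and 65276 to 82918 CPM at 48 h, 4 of them lower, and the part of hepatocyte number in the results that follow was not tested. Drug-metabolising genes were lower as a group. Of the list of the P450 system, which carries out the oxidation of drugs, 2 of the 36 tested genes rose and 25 fell, with a median log2 fold change of -1.07, beside 23.3% higher and 20.9% lower over all genes. Cyp2c38, a drug and fatty acid hydroxylase, was at 27.8, 24.8 and 11.3 CPM at 0 h and 2.77, 1.07, 0.832 and 0.91 CPM at 48 h. The groups did not overlap, and it fell (log2 fold change -3.93 ± 0.45, adjusted p = 0.00014), though its reads may be shared with close copies of the Cyp2c family. Cyp3a11, the main mouse counterpart of human CYP3A4, fell (log2 fold change -1.83 ± 0.64, adjusted p = 0.04) from 1168 to 2969 CPM to 292 to 1361 CPM, with section D inside the range of the 0 h sections. Cyp1a2, which also oxidises acetaminophen, did not pass (-0.55, adjusted p = 0.43). The exceptions were Por, the reductase that feeds electrons to every microsomal P450, at 92.3, 95 and 68.8 CPM at 0 h and 230.2, 148, 250.0 and 157 CPM at 48 h, and Fmo5, a flavin-containing oxygenase, and both rose (1.20 and 0.81, adjusted p = 0.011 and 0.016, respectively). Por was higher in all 4 injured sections than in any uninjured section, and Fmo5 overlapped in section D.

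Conjugation, which adds sulphate, glucuronate or glutathione, followed the same direction: 0 of the 32 tested genes rose and 22 fell, with a median log2 fold change of -0.80. Sult2a8, a bile acid sulphotransferase, fell by 2.73 on the log2 scale (adjusted p = 0.0016), and Gstp1, a glutathione transferase, was at 291, 424 and 335 CPM at 0 h and 139, 165, 67 and 210.3 CPM at 48 h and fell (log2 fold change -1.27 ± 0.37, adjusted p = 0.02). Ugt1a1, the bilirubin glucuronosyltransferase, fell as well (-2.40, adjusted p = 0.00026) from 0.594 to 1.07 CPM to 0.115 to 0.159 CPM, and its last exons are shared by the whole Ugt1a cluster. Sult1a1, a phenol sulphotransferase, had a log2 fold change of -0.18 (adjusted p = 0.47). Ugt1a5 did not pass the filter on low counts. Calls lost when 1 of the 7 sections was left out, with the sections named and the highest adjusted p reached, were those of Cyp3a11 (without 0 h 2 or 3 or 48 h A, B or C, adjusted p up to 0.12), Fmo5 (without 0 h 2 or 3, adjusted p up to 0.063) and Gstp1 (without 0 h 3, adjusted p up to 0.07).

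Targets of the Wnt signal that central veins send to the hepatocytes around them were mostly lower, as 3 of the 21 tested genes rose and 11 fell, with a median log2 fold change of -0.72. Rhbg, an ammonium channel of the last rows of hepatocytes, was at 10.1, 8.08 and 9.74 CPM at 0 h and 0.709, 1.27, 1.29 and 1.07 CPM at 48 h and fell (log2 fold change -3.10 ± 0.25, adjusted p = 2.3e-05). Lgr5, the R-spondin receptor, fell (-0.90, adjusted p = 0.013), whereas Axin2, a direct feedback target, did not pass (0.09, adjusted p = 0.78). Lect2, a secreted chemotactic factor, went the other way at 145, 125 and 149 CPM at 0 h and 225, 304, 299.5 and 248 CPM at 48 h with no overlap (log2 fold change 0.95 ± 0.17, adjusted p = 0.0011). The other members to rise were Rnf43, a ubiquitin ligase that removes Wnt receptors (0.70, adjusted p = 0.027), and Ahr, the dioxin receptor (0.76, adjusted p = 0.018). Of the ligands, Rspo3 and Wnt2 did not pass (0.38 and -0.35, adjusted p = 0.23 and 0.28, respectively), and Wnt2 was at 0.18 under total-count scaling. Wnt9b rose from a low level (1.32, adjusted p = 0.047). Leaving out 1 section ended the calls of Lgr5 (without 0 h 2, adjusted p up to 0.061), Rnf43 (without 0 h 3 or 4 or 48 h B, adjusted p up to 0.11), Ahr (without 0 h 3, adjusted p up to 0.076) and Wnt9b (without 0 h 2, 3 or 4 or 48 h C or D, adjusted p up to 0.14).

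Lipid metabolism fell broadly. In lipogenesis 0 of the 22 tested genes rose and 19 fell, with a median log2 fold change of -1.41, and the summed level of the list went from 12743 to 15589 CPM at 0 h down to 1981 to 2743 CPM at 48 h. Scd1, the desaturase that makes oleate, was at 9929, 10306 and 7924 CPM at 0 h and 685, 381, 739.8 and 967 CPM at 48 h. Every injured section lay far below the lowest uninjured one (log2 fold change -3.76 ± 0.99, adjusted p = 0.012). Fasn, the fatty acid synthase, was at 1048, 805 and 774 CPM at 0 h and 236, 186, 146 and 186 CPM at 48 h and fell with a wide error (log2 fold change -2.21 ± 0.72, adjusted p = 0.031), while Srebf1, the sterol-regulated factor that drives both, showed no call (0.36, adjusted p = 0.59). Sterol synthesis behaved alike: 0 of the 25 tested genes rose and 21 fell, with a median log2 fold change of -1.13. Hmgcs1, the first committed step, fell from 406 ± 60.8 to 159 ± 26.6 CPM (mean ± SD; log2 fold change -1.35 ± 0.22, adjusted p = 0.00085), and Sqle, squalene epoxidase, and Tm7sf2, a sterol reductase, fell with it (-1.22 and -1.88, adjusted p = 0.00053 and 4.2e-05, respectively). The groups did not overlap for any of these 3 genes. Lss and Mvk were among the genes not called.

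Genes that burn fat fell along with those that make it. For fatty acid oxidation and ketogenesis 0 of the 35 tested genes rose and 31 fell, with a median log2 fold change of -0.93. Cpt1a, which admits fatty acids to mitochondria, was at 107, 144 and 119.8 CPM at 0 h and 80, 55.1, 61 and 80.2 CPM at 48 h and fell (log2 fold change -0.84 ± 0.18, adjusted p = 0.0031), and the omega-hydroxylase Cyp4a12a fell from 211 to 248 CPM to 3.62 to 10.1 CPM (-4.86, adjusted p = 9.6e-05), as did its near-identical neighbour Cyp4a12b (-4.89, adjusted p = 0.00016). Cyp4a14, a PPARα target, did not pass (0.48, adjusted p = 0.72), and its value turned to -1.05, adjusted p = 0.28 without 48 h section A and to -0.03, adjusted p = 0.98 without 0 h section 4. In the lipid droplet list 4 of the 19 tested genes rose and 10 fell, beside 23.3% higher and 20.9% lower over all genes. The median log2 fold change was -0.51, a median that turned to 0.02 under total-count scaling. Fitm1, which buds droplets, fell from 51.6 to 74 CPM to 2.54 to 4.71 CPM (-4.07, adjusted p = 5.6e-05), and the droplet coats Plin2 and Plin4 also fell (-0.67 and -2.20, adjusted p = 0.012 and 0.031, respectively). Those that rose were the fatty acid importer Cd36, at 26.4, 33 and 23.2 CPM at 0 h and 76.8, 84.5, 130.3 and 92.2 CPM at 48 h (a log2 fold change of 1.80 ± 0.23, adjusted p = 0.00021), the fatty acid carrier Fabp4, the lipase inhibitor Hilpda (0.90, adjusted p = 0.01) and, at 0.0805 to 0.261 CPM at 48 h, Cidea (2.81, adjusted p = 0.0061). Cidec had a log2 fold change of 1.01 (adjusted p = 0.18), and Plin1 did not pass the filter. Without 1 section the calls of Fasn (without any section, adjusted p up to 0.076), Plin2 (without 0 h 3, adjusted p up to 0.059) and Plin4 (without 0 h 3 or 4 or 48 h B, C or D, adjusted p up to 0.11) were lost.

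Sugar metabolism was mixed. For gluconeogenesis and glycogen 0 of the 23 tested genes rose and 16 fell, with a median log2 fold change of -0.92. G6pc, the phosphatase that releases glucose, was at 494, 450.4 and 444 CPM at 0 h and 18.1, 80.4, 45.4 and 189.6 CPM at 48 h and fell with a wide spread (log2 fold change -2.47 ± 0.63, adjusted p = 0.01). Pck1, another gluconeogenic gate, did not pass although its groups did not overlap (-1.18, adjusted p = 0.086), and was called at -1.50 (adjusted p = 0.044) without 48 h section D. Glycolytic genes of the non-hepatic kind split, with 7 higher and 5 lower of 17, against 23.3% and 20.9% of all genes. Pkm, the pyruvate kinase that adult hepatocytes largely lack, was at 19.5, 23.1 and 26.4 CPM at 0 h and 137, 117, 198 and 121 CPM at 48 h. It was higher in every injured section (log2 fold change 2.64 ± 0.29, adjusted p = 0.00011), as were the glucose transporter Slc2a1 (0.91, adjusted p = 0.0055) and, at 1.01 to 1.76 CPM in injured sections, the hexokinase Hk2 (1.51, adjusted p = 0.01). The 5 that fell, Eno1 (-0.60, adjusted p = 0.0062), Gapdh (-0.46, adjusted p = 0.013), Pgk1 (-0.37, adjusted p = 0.0097), Pfkm and Tpi1, catalyse shared steps of glycolysis, and Gapdh and Pgk1 turned to 0.07 and 0.15 under total-count scaling.

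For amino acid catabolism 0 of the 40 tested genes rose and 24 fell, with a median log2 fold change of -0.57. Under total-count scaling 4 rose and 2 fell, with a median of -0.04. Csad, which makes taurine, was at 409.9, 324 and 255 CPM at 0 h and 88.2, 28.3, 42.1 and 57.7 CPM at 48 h, all 4 injured values below the uninjured ones (log2 fold change -2.61 ± 0.35, adjusted p = 0.00031). Tat and Tdo2, which begin the breakdown of tyrosine and tryptophan, fell less (-1.11 and -0.78, adjusted p = 0.042 and 0.036, respectively). For the list of the urea cycle and other ammonia genes 0 of the 16 tested genes rose and 7 fell, with a median log2 fold change of -0.44, the median turning to 0.09 under total-count scaling. Cps1, the entry enzyme of the cycle, was at 1891, 1975 and 1850.1 CPM at 0 h and 2156, 2411, 1898 and 1543 CPM at 48 h. The groups overlapped and Cps1 was not called (log2 fold change 0.07 ± 0.15, adjusted p = 0.71). Ass1 and Arg1 were not called either (-0.35 and -0.19, adjusted p = 0.22 and 0.58, respectively), and their values were above 0 under total-count scaling at 0.17 and 0.34. The largest fall in the list was that of Got1, an aspartate transaminase (-1.34, adjusted p = 0.023). Leaving out 1 section ended the calls of Tat (without 0 h 2 or 4 or 48 h A, B, C or D, adjusted p up to 0.13), Tdo2 (without 0 h 2, 3 or 4 or 48 h C or D, adjusted p up to 0.092) and Got1 (without 0 h 3 or 4 or 48 h B or C, adjusted p up to 0.059).

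Secreted plasma proteins had a median of -0.45, with 25 of 41 lower and 1 higher (0.08, 6 and 13 under total-count scaling). Serpinc1, antithrombin, fell from 2186 ± 40.2 to 1237 ± 102 CPM (mean ± SD; log2 fold change -0.82 ± 0.10, adjusted p = 0.00015), Apoh, a phospholipid-binding apolipoprotein, fell less (-0.57, adjusted p = 0.019), and Mbl2, the mannose-binding lectin, fell from 365 to 389.9 CPM to 111 to 190.1 CPM (adjusted p = 0.00013). Ahsg, fetuin A, stayed uncalled (0.26, adjusted p = 0.11). Trf, transferrin, was the single member to rise, at 9865, 9399 and 10955 CPM at 0 h and 13063, 14469.6, 12428 and 13296 CPM at 48 h (a log2 fold change of 0.40 ± 0.13, adjusted p = 0.028). Among hepatocyte transcription factors 1 of 23 rose and 8 fell (median -0.37, 0.16 under total-count scaling). Cebpa, which holds hepatocytes differentiated, was at 213, 138 and 142 CPM at 0 h and 103, 99.7, 75.8 and 107 CPM at 48 h and fell (log2 fold change -0.77 ± 0.20, adjusted p = 0.0091). Hnf4a, the master regulator, was at 179, 179 and 167 CPM at 0 h and 161, 159, 131 and 127 CPM at 48 h. Its groups did not overlap but it was not called (log2 fold change -0.28 ± 0.13, adjusted p = 0.11, and 0.25 under total-count scaling), and Onecut1, at 1.03 to 2.99 CPM and 0.33 to 0.867 CPM, was not called either (-1.68, adjusted p = 0.056). Nr1i3, the constitutive androstane receptor, was the member that rose (0.48, adjusted p = 0.042), with overlapping groups. Single-section omission removed the calls of Apoh (without 0 h 2 or 3, adjusted p up to 0.063), Trf (without 0 h 2 or 3 or 48 h B, adjusted p up to 0.1) and Nr1i3 (without 0 h 2, 3 or 4 or 48 h A, B or C, adjusted p up to 0.15).

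Bile acid genes fell more often than they rose. In all, 3 of the 26 tested genes rose and 12 fell, with a median log2 fold change of -0.48 (0.05 under total-count scaling). Slc10a1, the main importer from blood, was at 791, 815 and 627 CPM at 0 h and 290.3, 236, 233 and 183 CPM at 48 h. It fell in every injured section (log2 fold change -1.66 ± 0.20, adjusted p = 0.00014), and Cyp8b1, the 12α-hydroxylase that sets the cholate share, fell further, from 345 to 461 CPM to 46.5 to 78.9 CPM (-2.69, adjusted p = 9.3e-05). Abcb11, the canalicular export pump, fell (-0.90, adjusted p = 0.027), whereas Cyp7a1, the rate-limiting enzyme of synthesis, was not called (0.36, adjusted p = 0.74). The members that rose were Abcc4, which exports bile acids to blood (1.78, adjusted p = 0.0021), Abcb1a, a drug efflux pump (1.22, adjusted p = 0.045), and Slco1a4, an organic anion carrier (1.28, adjusted p = 0.03). Slc51a did not pass the filter. Calls that depended on 1 section were Abcb11 (without 0 h 3 or 4 or 48 h B or C, adjusted p up to 0.079), Slco1a4 (without 0 h 3 or 4 or 48 h A, B or C, adjusted p up to 0.093) and Abcb1a (without 0 h 2, 3 or 4 or 48 h A, B or C, adjusted p up to 0.13).

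Growth hormone targets, many of them male-biased in mice, were lower: 0 of the 23 tested genes rose and 14 fell, with a median log2 fold change of -1.35. Igf1, the hormone's main liver product, was at 748, 732 and 813 CPM at 0 h and 511, 561, 526 and 547 CPM at 48 h and fell by 0.51 on the log2 scale (adjusted p = 0.00088), a value of 0.02 under total-count scaling. Hsd3b5, a male-specific steroid dehydrogenase, was at 277, 235 and 336 CPM at 0 h and 4.97, 29.5, 7.36 and 102 CPM at 48 h. It was lower in every injured section, over a wide range, and was not called (log2 fold change -2.97 ± 1.30, adjusted p = 0.089). It was called at -4.35 (adjusted p = 0.031) without 48 h section D. Nor was a call made for Socs2, a feedback inhibitor (-0.36, adjusted p = 0.75). The IGF axis was mixed, with Igfbp3 (0.96, adjusted p = 0.039) and Igf2r higher and Igfbp2 (-0.86, adjusted p = 0.048), Igfals, Igf1 and Igfbp4 lower of 11, against 23.3% higher and 20.9% lower over all genes. Igfbp1 was not called despite separate groups (0.79, adjusted p = 0.14). Clock genes gave 3 rises and 5 falls of 20, beside 23.3% higher and 20.9% lower over all genes (median -0.32, 0.21 under total-count scaling). Per3 (2.37, adjusted p = 0.0024), Bhlhe41 (1.94, adjusted p = 0.00099) and Usp2 rose, while Arntl, the core activator (-0.52, adjusted p = 0.004, 0.00 under total-count scaling), Bhlhe40 (-0.84, adjusted p = 0.021), Rora, Clock and Hlf fell. Per1 and Dbp were not called (-0.48 and 0.75, adjusted p = 0.37 and 0.096, respectively). Dbp was called at 1.12 (adjusted p = 0.035) without 0 h section 2. The hour of the day at which tissue was taken is not given in the sources used here. Sult3a1 and Igf2 did not pass the filter, and leaving out 1 section ended the calls of Igfbp3 (without 0 h 2, 3 or 4 or 48 h A, B or C, adjusted p up to 0.11), Igfbp2 (without 0 h 2, 3 or 4 or 48 h A, B or C, adjusted p up to 0.14) and Bhlhe40 (without 0 h 2 or 3 or 48 h A, adjusted p up to 0.086).

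All 44 nuclear-encoded respiratory chain genes were lower, with no overlap between groups and a median of -0.67. Under total-count scaling the median was -0.14, and 4 of them were called lower and 0 higher. Sdha, of complex II, was at 387, 379.8 and 374 CPM at 0 h and 243, 212, 191 and 204 CPM at 48 h (a log2 fold change of -0.84 ± 0.11, adjusted p = 0.00018). Ndufs1 of complex I, Cox4i1 of complex IV and Atp5b of the ATP synthase fell by similar amounts (-0.68, -0.57 and -0.55, adjusted p = 0.00081, 0.00092 and 0.0022, respectively). Transcripts of the mitochondrial genome fell further: 12 of 13 were lower, with a median of -1.59, and mt-Nd6 was not called. The mitochondrial share of UMIs given above, by which spots were also filtered, is made of these same transcripts. mt-Co1, of cytochrome oxidase, was at 12300.4, 12551 and 8102 CPM at 0 h and 5186, 4743, 4392 and 3599 CPM at 48 h. Its groups were far apart (log2 fold change -1.29 ± 0.28, adjusted p = 0.0044), and mt-Nd1, mt-Cytb and mt-Atp8, which overlaps mt-Atp6 on the same strand, fell as well (-1.59, -1.19 and -3.44, adjusted p = 0.0025, 0.0022 and 0.0011, respectively).

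**Figure D2:**
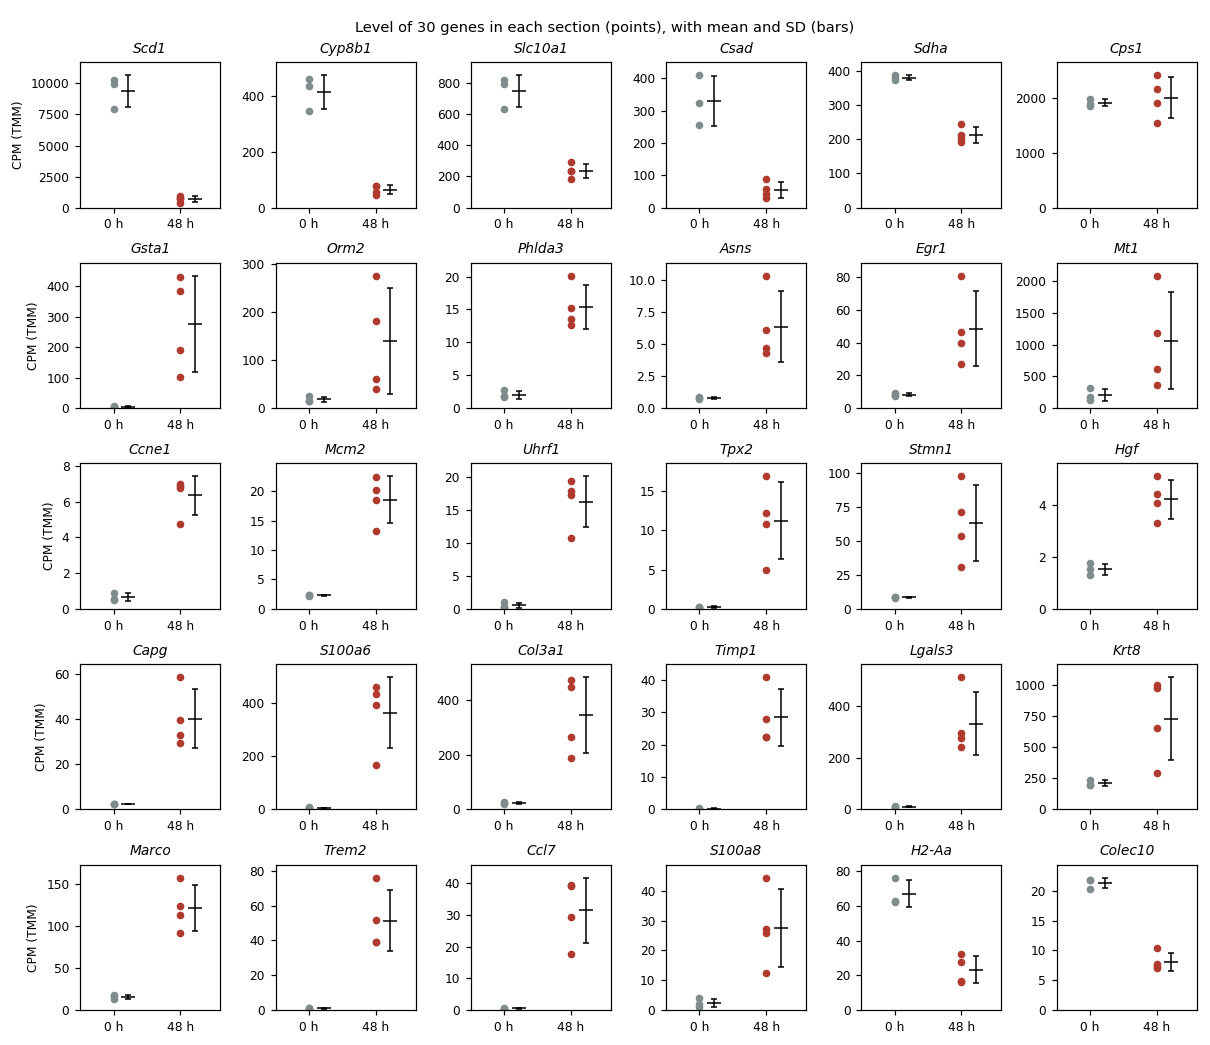
CPM of 30 genes in each section (points; grey, 3 sections at 0 h; red, 4 sections at 48 h), with mean and SD beside them; every axis starts at 0. Scd1, Cyp8b1 and Sdha separate downwards, Cps1 overlaps, and cell cycle, matrix and phagocyte genes separate upwards, with wide spread among injured sections for Gsta1, Mt1 and Krt8.

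The acute phase response, the change in secreted hepatocyte proteins driven by interleukin-6 and interleukin-1, was partial. Of its list, 13 of the 32 tested genes rose and 3 fell, with a median log2 fold change of 0.65. Lcn2, the siderophore-binding lipocalin, went from 2.25 to 7.51 CPM to 185 to 738 CPM (adjusted p = 0.00054). Orm2, an orosomucoid, was at 14.6, 15.3 and 24.5 CPM at 0 h and 39.1, 61.6, 275 and 181 CPM at 48 h. All injured values were higher, those of sections C and D most (log2 fold change 2.94 ± 0.63, adjusted p = 0.0044). Saa1, the classical marker in mice, overlapped between groups at 152, 87.7 and 636 CPM at 0 h and 42.5, 193, 662 and 731 CPM at 48 h and was not called (log2 fold change 0.48 ± 0.90, adjusted p = 0.69). The fibrinogen chains went against the list's name: Fga and Fgg fell (-0.43 and -0.40, adjusted p = 0.034 and 0.028, respectively), as did Crp, which is not inducible in mice to the extent known in humans (-0.36, adjusted p = 0.028), all 3 turning above 0 under total-count scaling at 0.10, 0.13 and 0.17. Fgb had a log2 fold change of -0.20 (adjusted p = 0.27).

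Signalling genes of the interleukin-6 family showed 8 rises and 3 falls among 20 (median 0.28). Osmr, the oncostatin M receptor, was at 2.25, 2.65 and 2.82 CPM at 0 h and 6.28, 5.72, 7.32 and 4.9 CPM at 48 h and Socs3, the feedback inhibitor, at 3.9, 2.26 and 2.57 CPM at 0 h and 9.67, 8.27, 10.4 and 5.55 CPM at 48 h. Both were higher in all injured sections (1.24 and 1.54, adjusted p = 0.005 and 0.004, respectively). Lifr, the receptor of leukaemia inhibitory factor, fell (-1.48, adjusted p = 0.012), as did Il11ra1 and the cytokine Il1b (-1.43, adjusted p = 0.031), while Cebpb had a log2 fold change of -0.38 (adjusted p = 0.2) and was called at -0.66 (adjusted p = 0.012) without 0 h section 4. Il6 itself did not pass the filter. Without 1 section the calls of Fga (without 0 h 2, 3 or 4 or 48 h A, B or D, adjusted p up to 0.12), Fgg (without 0 h 3 or 4 or 48 h A, B or D, adjusted p up to 0.13), Crp (without 0 h 2, 3 or 4 or 48 h A, C or D, adjusted p up to 0.081), Lifr (without 0 h 4, adjusted p up to 0.051) and Il1b (without 0 h 2 or 3 or 48 h B or C, adjusted p up to 0.1) were lost.

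Targets of NRF2, the sensor of oxidants and electrophiles, split. The list gave 11 rises and 6 falls of 29, against 23.3% and 20.9% of all genes, and its median of -0.05 turned to 0.48 under total-count scaling. Gsta1, a glutathione transferase, was at 6.14, 4.53 and 2.37 CPM at 0 h and 385, 189.7, 430.0 and 100.5 CPM at 48 h. The rise was large in every injured section and smallest in D (log2 fold change 5.98 ± 0.60, adjusted p = 8.4e-05), although reads may be shared with close copies. Srxn1, sulphiredoxin, and Nqo1, a quinone reductase, rose (1.66 and 1.13, adjusted p = 0.0011 and 0.0033, respectively), while Gclc, which limits glutathione synthesis, did not pass (-0.19, adjusted p = 0.35) except at -0.36 (adjusted p = 0.024) without 48 h section A. Me1, a source of NADPH that is also on the lipogenesis list, fell from 167 to 277 CPM to 34.1 to 55.5 CPM (-2.29, adjusted p = 0.00017).

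Of endoplasmic reticulum stress genes 8 of 33 were higher, near the 23.3% of all genes, and 3 lower (22 and 0 under total-count scaling). Asns, asparagine synthetase, was at 0.814, 0.865 and 0.706 CPM at 0 h and 6.11, 4.27, 10.3 and 4.68 CPM at 48 h and Atf3, a stress factor, at 6.63, 7.77 and 3.62 CPM at 0 h and 15.4, 14.3, 17 and 15.1 CPM at 48 h. They rose with separate groups (2.99 and 1.36, adjusted p = 0.0004 and 0.0063, respectively). The chaperone Hspa5 and the factor Ddit3 did not pass (0.37 and 0.86, adjusted p = 0.37 and 0.2, respectively), and Hyou1 (-0.89, adjusted p = 0.017, and -0.76, adjusted p = 0.066 without 0 h section 2), Atf4 (-0.58, adjusted p = 0.0035) and Shmt2 (-0.57, adjusted p = 0.0077) fell. Heat shock chaperones included 1 rise and 6 falls of 19 (median -0.25, 0.27 under total-count scaling). Cryab, αB-crystallin, rose (1.30, adjusted p = 0.0084) and Hspa1b, the inducible Hsp70, fell (-2.38, adjusted p = 0.0043). Hspb1, a small heat shock protein, was at 33.7, 30.6 and 38 CPM at 0 h and 31.7, 31.4, 32.7 and 145 CPM at 48 h, high in D alone (0.82, adjusted p = 0.25), and Hspa8 had a log2 fold change of -0.30 (adjusted p = 0.25).

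Targets of p53 rose more often than they fell (13 against 1 of 25, median 0.40). Phlda3, a repressor of Akt, was at 1.65, 1.79 and 2.71 CPM at 0 h and 12.7, 13.5, 20.1 and 15.2 CPM at 48 h, far above the uninjured sections (log2 fold change 2.92 ± 0.32, adjusted p = 1.0e-04). Gdf15, a stress cytokine, and Mdm2, the ligase that degrades p53, rose (1.86 and 0.54, adjusted p = 0.00026 and 0.0006, respectively), and Rps27l fell. Cdkn1a, p21, was at 7.33, 16.3 and 36.9 CPM at 0 h and 27.1, 16.9, 28.7 and 21.6 CPM at 48 h and was not called (log2 fold change 0.23 ± 0.61, adjusted p = 0.78). The immediate early list had 12 rises and 1 fall of 24. Egr1 was at 9.31, 7.84 and 7.37 CPM at 0 h and 39.6, 80.6, 27.1 and 46.1 CPM at 48 h and Fos at 1.54, 1.33 and 1.16 CPM at 0 h and 6.31, 17.8, 10.3 and 7.53 CPM at 48 h. Egr1, Fos and Myc rose (2.56, 2.96 and 1.57, adjusted p = 0.00057, 0.00081 and 0.0017, respectively), whereas Jund fell (-0.73, adjusted p = 0.0081) and Jun was not called (0.21, adjusted p = 0.57).

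Of metallothioneins and zinc transporters 0 of 11 rose and 2 fell, beside 23.3% higher and 20.9% lower over all genes. In every injured section 3 members lay higher without passing and 2 lay lower, while 54.4% of all genes did not overlap between groups. Mt1, the main metallothionein, was at 179.5, 129 and 311 CPM at 0 h and 1175, 613, 2081 and 364 CPM at 48 h, higher in all injured sections but over a wide range, and not called (log2 fold change 2.36 ± 0.95, adjusted p = 0.068). Slc39a4, a zinc importer, was at 89.2, 74.3 and 84.1 CPM at 0 h and 26.9, 23.6, 32 and 29.9 CPM at 48 h and fell (log2 fold change -1.55 ± 0.15, adjusted p = 4.8e-05), as did Slc30a10, while Slc39a14 had a log2 fold change of 0.22 (adjusted p = 0.35). Iron genes moved both ways, 7 up and 8 down of 24, beside 23.3% higher and 20.9% lower over all genes. Id1, a BMP target, was at 9.51, 13.7 and 11.3 CPM at 0 h and 61.1, 62.6, 64 and 65.5 CPM at 48 h, tightly grouped (log2 fold change 2.46 ± 0.16, adjusted p = 1.0e-05). Hamp, hepcidin, overlapped (0.61, adjusted p = 0.19), Tfrc, the transferrin receptor, and Slc40a1, ferroportin, were not called (0.73 and -0.22, adjusted p = 0.079 and 0.23, respectively). Tfrc was called at 1.16 (adjusted p = 0.011) without 0 h section 2. The second hepcidin gene Hamp2 fell from 253 to 472 CPM to 18 to 70.7 CPM (-3.06, adjusted p = 0.0018).

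Cell cycle genes were higher at each stage. In the G1 list 15 of the 25 tested genes rose and 1 fell, with a median log2 fold change of 0.71. Ccnd1, cyclin D1, was at 13.2, 18.9 and 26 CPM at 0 h and 48.3, 97.8, 61.4 and 75.5 CPM at 48 h. Ccne1, cyclin E1, which carries cells into S phase, was at 0.484, 0.534 and 0.904 CPM at 0 h and 4.76, 6.76, 7.02 and 6.88 CPM at 48 h. Both were higher in every injured section (log2 fold change 1.87 ± 0.36, adjusted p = 0.0022 for Ccnd1 and log2 fold change 3.33 ± 0.25, adjusted p = 1.8e-05 for Ccne1), and so was the factor E2f1 (2.01, adjusted p = 3.5e-05). The single fall was that of Rbl2, a repressor of quiescent cells (-0.58, adjusted p = 0.00059), and Cdkn2a did not pass the filter.

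DNA replication rose almost throughout, with 44 of 50 genes higher and a median of 1.52. Mcm2, part of the replicative helicase, was at 2.33, 2.19 and 2.43 CPM at 0 h and 13.2, 22.4, 18.6 and 20.2 CPM at 48 h. Uhrf1, which directs the upkeep of DNA methylation at the fork, was at 0.33, 0.331 and 0.989 CPM at 0 h and 10.7, 19.3, 17.8 and 17.2 CPM at 48 h. Section A was the lowest of the injured sections for both, yet well above 0 h (log2 fold change 3.01 ± 0.20, adjusted p = 1.4e-05 for Mcm2 and log2 fold change 4.96 ± 0.43, adjusted p = 3.6e-05 for Uhrf1). Mcm5 and Mcm6, other helicase subunits, rose (3.34 and 3.28, adjusted p = 5.2e-05 and 1.4e-05, respectively), as did Rrm2, which makes deoxynucleotides, and Pcna, the sliding clamp (2.13 and 1.23, adjusted p = 0.00075 and 8.9e-05, respectively). Mcm10, a replication initiator, was the exception: it was at 100.2, 90.3 and 96.3 CPM at 0 h and 22, 27.2, 17.2 and 45.8 CPM at 48 h and fell (log2 fold change -1.77 ± 0.30, adjusted p = 0.0011). Pold2, Gins4, Pola2 and Rpa3 were among the members without a call.

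Mitotic genes rose most of all. Of 52 genes, 51 were higher with no overlap between groups, and the median of 4.39 compares with 0.01 over all genes. Cdk1, the mitotic kinase, was at 1.65, 1.77 and 2.29 CPM at 0 h and 14.5, 27.9, 34.5 and 42.3 CPM at 48 h. Ccnb1, its cyclin, was at 0.264, 0.276 and 0.339 CPM at 0 h and 4.43, 11.8, 10.5 and 17.1 CPM at 48 h. Plk1, the polo kinase, was at 0.308, 0.35 and 0.141 CPM at 0 h and 3.59, 7.95, 9.44 and 13.3 CPM at 48 h, and Tpx2, a spindle assembly factor, at 0.286, 0.147 and 0.254 CPM at 0 h and 4.97, 10.8, 12.2 and 16.8 CPM at 48 h. In all 4 genes section A was the lowest and section D the highest of the injured sections (3.98, 5.23, 4.94 and 5.63, adjusted p = 4.6e-05, 5.7e-05, 5.6e-05 and 3.6e-05, respectively). Pttg1, securin, alone fell, at 67.3, 70.9 and 68.4 CPM at 0 h and 41.7, 42.2, 43.1 and 46.1 CPM at 48 h (a log2 fold change of -0.67 ± 0.11, adjusted p = 0.00076). The promoters printed above for Cdk1 and Plk1, with TTTGAA in capitals, belong to genes that were higher in every injured section.

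Cytoskeletal partners of division rose with them, 9 of 17 tubulin and stathmin genes being higher and Tuba4a (-0.69, adjusted p = 0.0033) and Tubb2a lower. Stmn1, which destabilises microtubules, was at 8.08, 8.47 and 8.87 CPM at 0 h and 30.9, 53.7, 71.7 and 97.6 CPM at 48 h. It again was lowest in A and highest in D (log2 fold change 2.91 ± 0.33, adjusted p = 0.00014), and Tuba1b and Tubb5 rose less (1.34 and 1.37, adjusted p = 0.00024 and 7.6e-05, respectively). Ribosome biogenesis gave 9 rises and 1 fall, Npm3, of 39 (median 0.10). The share of rises was near that of all genes, and under total-count scaling the rises were 36 and the median 0.63. Nop56 and Gar1 were higher (0.52 and 0.89, adjusted p = 0.0039 and 0.00011, respectively). Npm1 and Gnl3 were not called (0.05 and 0.28, adjusted p = 0.72 and 0.07, respectively). Ribosomal proteins had 0 rises and 20 falls of 64 and a median of -0.24 (27 rises, 0 falls and 0.29 under total-count scaling). Rps27 fell (-0.85, adjusted p = 0.014, and -0.77, adjusted p = 0.051 without 0 h section 3), and Rplp0, Rpl3 and Rps6 were not called (-0.22, -0.22 and -0.36, adjusted p = 0.32, 0.25 and 0.058, respectively). For the proteasome 31 of 37 subunits fell, with a median of -0.37, a direction that turned to 0.16 under total-count scaling, with 0 falls and 8 rises. Psma5, Psmb5 and Psma1 fell (-0.70, -0.42 and -0.37, adjusted p = 0.00044, 0.0022 and 0.03, respectively), and Psmb5 and Psma1 were at 0.11 and 0.16 under total-count scaling. Psmd1 had a log2 fold change of -0.31 (adjusted p = 0.094), and the call lost without 1 section was that of Psma1 (without 0 h 2, 3 or 4 or 48 h B or C, adjusted p up to 0.082).

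Growth factors for hepatocytes rose. In the HGF and EGF receptor axis 11 of the 20 tested genes rose and 4 fell, with a median log2 fold change of 0.59. Hgf, hepatocyte growth factor, was at 1.32, 1.53 and 1.75 CPM at 0 h and 3.3, 4.09, 5.11 and 4.42 CPM at 48 h. Hbegf, a ligand of the EGF receptor, was at 1.32, 1.69 and 1.67 CPM at 0 h and 5.92, 5.09, 3.93 and 2.54 CPM at 48 h. Plat, the tissue plasminogen activator, which can activate HGF, was at 0.198, 0.202 and 0.537 CPM at 0 h and 13.7, 10.6, 14.9 and 6.03 CPM at 48 h. All 3 rose without overlap (1.47, 1.48 and 5.24, adjusted p = 0.00081, 0.005 and 0.00025, respectively). The receptors Met and Egfr were not called (-0.43 and -1.05, adjusted p = 0.081 and 0.086, respectively), although Egfr was at -1.58 (adjusted p = 0.0066) without 48 h section D. Those that fell were Hgfac, an HGF-activating protease (-0.84, adjusted p = 0.0015), the receptor Erbb3 (-0.71, adjusted p = 0.02), the feedback inhibitor Errfi1 and the protease Hpn. The call that depended on 1 section was Erbb3 (without 0 h 2 or 3 or 48 h C, adjusted p up to 0.074).

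Genes of movement and shape rose broadly. In the actin list 34 of the 56 tested genes rose and 1 fell, with a median log2 fold change of 0.52. Capg, which caps actin filaments, was at 2.4, 2.36 and 2.37 CPM at 0 h and 33.1, 29.6, 58.6 and 39.4 CPM at 48 h. Tmsb10, a thymosin that binds actin monomers, was at 55.3, 58.9 and 72.4 CPM at 0 h and 266, 309, 329 and 369.7 CPM at 48 h. Every injured section lay several-fold above the uninjured ones (log2 fold change 4.08 ± 0.34, adjusted p = 3.0e-05 for Capg and log2 fold change 2.36 ± 0.21, adjusted p = 3.5e-05 for Tmsb10). Actb, β-actin, rose modestly (0.51, adjusted p = 0.02), Myh9, non-muscle myosin, was not called though its groups were separate (0.47, adjusted p = 0.099), and Rdx, radixin, which anchors canalicular membranes, alone fell (-0.61, adjusted p = 0.0023). Actb was the member whose call was lost without 1 section: Actb (without 0 h 2 or 3, adjusted p up to 0.077).

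Among annexins and S100 proteins 8 of 16 rose. S100a6, calcyclin, was at 5.11, 5.96 and 7.37 CPM at 0 h and 434, 392, 458 and 167 CPM at 48 h. S100a11 was at 10.4, 12.5 and 13.5 CPM at 0 h and 103, 102, 172 and 79.8 CPM at 48 h, and Anxa1, an anti-inflammatory annexin, at 4.23, 4.21 and 4.97 CPM at 0 h and 23.1, 31.8, 42.4 and 35.8 CPM at 48 h. The injured sections were far higher, with D lowest for S100a6 and S100a11 (5.88, 3.24 and 2.90, adjusted p = 0.00012, 0.00043 and 0.00011, respectively). Anxa5 rose by less (1.04, adjusted p = 0.0016), and S100a1 and S100a13 fell. Integrins and CD44 had 12 rises and no falls in 20 (median 0.96), among them Cd44, the hyaluronan receptor, at 8.67, 10.2 and 10.7 CPM at 0 h and 42.8, 43.8, 57.1 and 37.4 CPM at 48 h (a log2 fold change of 2.20 ± 0.21, adjusted p = 4.8e-05). Itgav rose (1.22, adjusted p = 0.00021) and Itgb1 was just short of the threshold (0.36, adjusted p = 0.055).

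Genes of the YAP pathway, which reads tissue tension, and its targets rose in 12 of 21 cases. Ankrd1 went from 0.22 to 0.254 CPM to 1.08 to 2.36 CPM (2.75, adjusted p = 0.0012), Cyr61 rose (1.16, adjusted p = 0.0074), Ctgf was not called (0.31, adjusted p = 0.66) and Lats1, an upstream inhibitor, fell (-0.38, adjusted p = 0.008, and 0.15 under total-count scaling). In the TGF-β and activin list 14 of the 30 tested genes rose and 4 fell, with a median log2 fold change of 0.38. Ltbp2, a latent TGF-β-binding protein of the matrix, was at 0.616, 0.276 and 0.254 CPM at 0 h and 8.51, 8.07, 17.4 and 18.5 CPM at 48 h (a log2 fold change of 5.09 ± 0.53, adjusted p = 8.3e-05). Tgfb1 was at 9.31, 10.7 and 11.5 CPM at 0 h and 18.7, 16.3, 26.2 and 22 CPM at 48 h. It was higher in the injured sections too (0.99, adjusted p = 0.0023), whereas Inhba and its antagonist Fst were not called (-0.78 and 0.15, adjusted p = 0.22 and 0.81, respectively). Those that fell were Ltbp4 (-1.05, adjusted p = 0.00067), Acvr2b (-0.90, adjusted p = 0.025), Inhbe and Acvr2a, and the call of Acvr2b (without 0 h 2 or 4 or 48 h A, B or D, adjusted p up to 0.1) was lost without 1 section.

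Matrix genes were higher in all 4 injured sections, and the fibrillar collagens more so in C and D than in A and B. For collagens and their processing enzymes 23 of the 30 tested genes rose and 1 fell, with a median log2 fold change of 2.0. Col3a1, a fibrillar collagen of early wounds, was at 21.2, 23.6 and 26.7 CPM at 0 h and 189.7, 267, 450.3 and 476 CPM at 48 h. Lox, which cross-links collagen, was at 0.11, 0.294 and 0.141 CPM at 0 h and 7.18, 8.33, 12.4 and 11.1 CPM at 48 h. Col1a1 went from 2.19 to 3.21 CPM to 94.3 to 291 CPM (6.20, adjusted p = 0.0001), and Col4a1, of basement membrane, rose (1.79, adjusted p = 0.00083). Col3a1 and Lox were higher without overlap (log2 fold change 3.86 ± 0.43, adjusted p = 0.00013 for Col3a1 and log2 fold change 5.67 ± 0.76, adjusted p = 0.00032 for Lox). Col18a1, which hepatocytes express, was the member that fell (-0.70, adjusted p = 0.00044).

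Matricellular genes gave 23 rises and no falls of 29 (median 1.76), with Aspn and Mfap5 below the filter. Lgals3, galectin 3, was at 10.1, 11 and 12.4 CPM at 0 h and 295, 242, 512 and 278 CPM at 48 h. Sparc and Postn rose (1.81 and 2.29, adjusted p = 0.0007 and 0.00032, respectively) and Lgals3 rose most (log2 fold change 4.90 ± 0.34, adjusted p = 1.8e-05), while Fn1, fibronectin, already at 933 to 999 CPM in uninjured liver, was not called (0.14, adjusted p = 0.41). Metalloproteinases and their inhibitors rose in 17 of 26 cases and fell in none. Timp1, the secreted inhibitor, was at 0.264, 0.147 and 0.424 CPM at 0 h and 27.8, 22.5, 40.8 and 22.4 CPM at 48 h. Mmp12, the macrophage elastase, was at 0.132, 0.11 and 0.395 CPM at 0 h and 24.3, 30.8, 42.3 and 24.8 CPM at 48 h. Both were near 0 in uninjured liver (6.74 and 7.27, adjusted p = 2.7e-05 and 2.6e-06, respectively). Mmp2 and Mmp14, a gelatinase and its activator, were not called (0.97 and 0.07, adjusted p = 0.14 and 0.9, respectively).

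Keratin and biliary genes rose in 9 of 22 cases, with Cldn3 lower and Krt20, Cftr and Ehf among those under the filter. Krt8, the keratin of hepatocytes, was at 199, 199.7 and 239 CPM at 0 h and 999, 649, 971 and 290.2 CPM at 48 h. Sections A and C were several-fold higher and D was close to the uninjured range (log2 fold change 1.77 ± 0.37, adjusted p = 0.0036). Spp1, osteopontin, and Sox9, a factor of bile ducts and reactive hepatocytes, rose (2.41 and 1.63, adjusted p = 0.00018 and 0.002, respectively). The 5 cholangiocyte markers, which include Spp1 and Sox9, summed to 50.7 to 74.0 CPM and 197 to 469 CPM with 2 of 5 higher. Spp1 is also among the markers of lipid-associated macrophages used below, so this sum is not that of cholangiocytes alone. Krt19, the defining keratin of cholangiocytes, was at 1.08, 1.47 and 2.17 CPM at 0 h and 2.29, 1.03, 2.88 and 1.21 CPM at 48 h and was not called (0.25, adjusted p = 0.73).

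**Figure D3:**
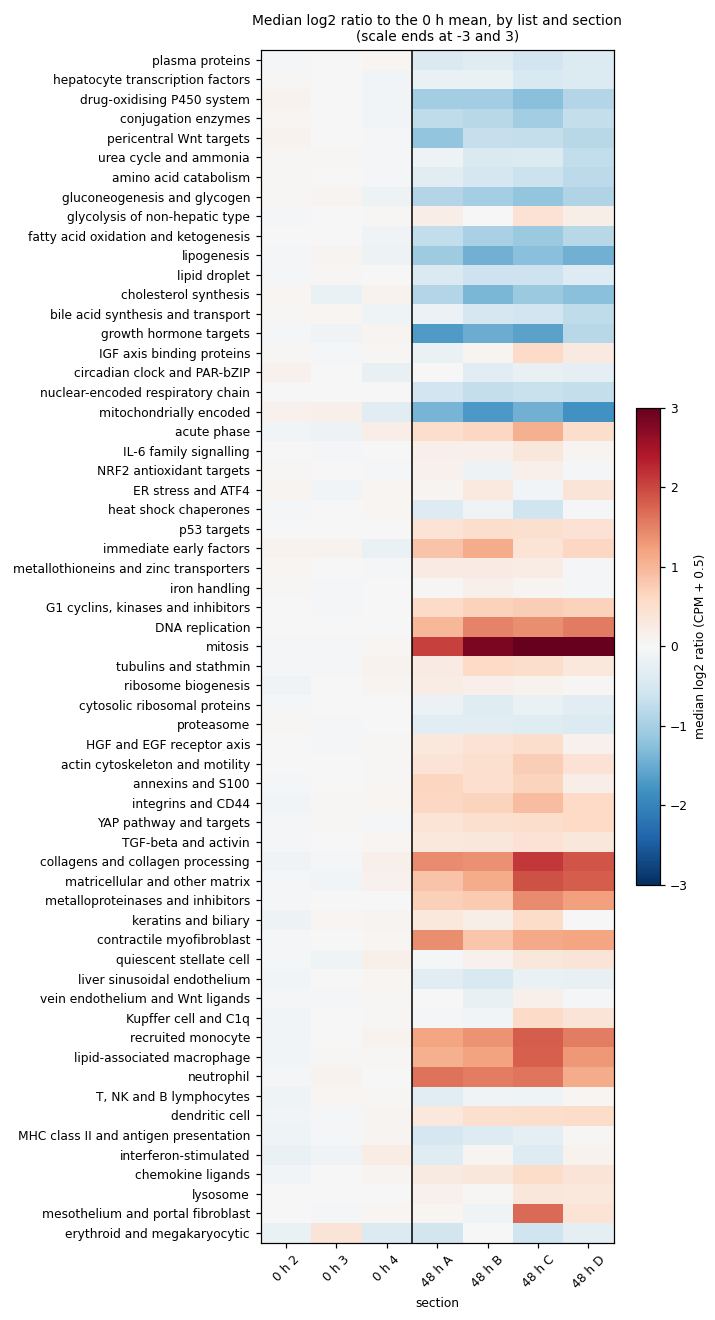
Median log2 ratio of each list's genes to their 0 h mean (CPM plus 0.5) in each section, with the 0 h sections left of the line and the colour scale ending at -3 and 3. The 4 injured sections share direction for most lists, mitosis being palest in A, and the collagen, recruited monocyte and lipid-associated macrophage lists deepest in C.

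Stellate cells, the vitamin A-storing pericytes of the liver, become contractile matrix producers when activated. Of the contractile list 10 of the 14 tested genes rose and 1 fell, with a median log2 fold change of 1.53. Acta2, smooth muscle actin, was at 1.94, 2.8 and 2.8 CPM at 0 h and 49.1, 57.2, 68.7 and 68.9 CPM at 48 h, and Tagln at 7.62, 9.42 and 11.9 CPM at 0 h and 39.8, 42.5, 61.9 and 47.2 CPM at 48 h. Both rose in all injured sections (4.60 and 2.31, adjusted p = 5.1e-05 and 0.0008, respectively), with Tpm2 and Myl9 behind them (1.74 and 1.23, adjusted p = 0.00023 and 0.0041, respectively). Genes of quiescent stellate cells gave 6 rises and 5 falls of 22, near the 23.3% higher and 20.9% lower of all genes. Colec10, a collectin, was at 21.8, 20.3 and 21.8 CPM at 0 h and 7.33, 10.3, 7.69 and 7.14 CPM at 48 h and fell (log2 fold change -1.39 ± 0.13, adjusted p = 3.6e-05), as did Colec11 (-0.90, adjusted p = 0.0009), Angptl6, Vipr1 and Ecm1, an inhibitor of TGF-β activation (-0.85, adjusted p = 0.0034). Pdgfrb, the PDGF receptor, rose (1.38, adjusted p = 0.00028), and Lrat, which esterifies retinol, and Reln were not called (0.22 and -0.22, adjusted p = 0.34 and 0.4, respectively). The summed markers of quiescent stellate cells, at 378 to 483 CPM and 238 to 306 CPM, and of myofibroblasts, at 34.0 to 43.9 CPM and 373 to 872 CPM, did not overlap between groups, and the part of cell numbers in these values was not tested.

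Liver sinusoidal endothelium, which filters blood through its pores, had 2 rises and 11 falls of 24, and a median of -0.28 that turned to 0.25 under total-count scaling. Dnase1l3, a DNase, was at 82.5, 90.8 and 95.3 CPM at 0 h and 32.1, 29.7, 33.6 and 39.4 CPM at 48 h. Clec4g, a sinusoidal lectin, was at 110.1, 116 and 119.7 CPM at 0 h and 53.9, 63.5, 66 and 68 CPM at 48 h. Both fell in every injured section (-1.41 and -0.88, adjusted p = 2.9e-05 and 0.00015, respectively), while the scavenger receptor Stab2 and Lyve1 were not called (-0.20 and -0.05, adjusted p = 0.17 and 0.94, respectively). Fabp4 (1.21, adjusted p = 0.014) and Stab1 (0.57, adjusted p = 0.029) rose. Of the vein endothelium list 4 rose, namely Plvap (0.52), Cd34 (1.37), Selp and Wnt9b, and Gja5 and Cldn5 fell of 18 (median -0.11, 0.41 under total-count scaling). Over all genes 23.3% were higher and 20.9% lower. Vwf had a log2 fold change of -0.59 (adjusted p = 0.16), and Sele was below the filter. The markers of sinusoidal endothelium summed to 236 to 270.0 CPM at 0 h and 159 to 184 CPM at 48 h, with 3 of 5 lower, and those of vein endothelium to 10.7 to 12.4 CPM and 15 to 24.5 CPM. Leaving out 1 section ended the calls of Stab1 (without 0 h 2 or 3 or 48 h C or D, adjusted p up to 0.11), Plvap (without 0 h 2, 3 or 4 or 48 h C or D, adjusted p up to 0.13) and Cd34 (without 0 h 2, 3 or 4 or 48 h C or D, adjusted p up to 0.09).

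The list of Kupffer cells, the resident macrophages, gave 5 rises and 2 falls of 18, against 23.3% and 20.9% of all genes. Clec4f, which only Kupffer cells express in mice, was at 145, 158 and 167 CPM at 0 h and 91, 106, 145 and 160.0 CPM at 48 h, overlapping and not called (log2 fold change -0.32 ± 0.19, adjusted p = 0.2, and 0.21 under total-count scaling). Marco, a scavenger receptor, was at 16.4, 13.5 and 18.4 CPM at 0 h and 124, 91.5, 157 and 113 CPM at 48 h and rose (log2 fold change 2.92 ± 0.24, adjusted p = 2.4e-05), as did Cd5l (0.80, adjusted p = 0.0069), Id3 (1.01, adjusted p = 0.0023), Il18bp (0.68, adjusted p = 0.023) and C1qb. Fcna was among those that fell, while the 4 Kupffer cell markers summed to 339 to 378 CPM and 335 to 575 CPM. C1qa had a log2 fold change of 0.10 (adjusted p = 0.81).

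Recruited monocyte genes rose in 18 of 22 cases with no falls (median 1.58). Ccr2, the receptor that draws them from blood, was at 0.836, 0.644 and 1.13 CPM at 0 h and 8.06, 9.66, 12.8 and 12.3 CPM at 48 h. Plac8 was at 18.9, 18.4 and 24.9 CPM at 0 h and 37.9, 44.6, 56.1 and 59.6 CPM at 48 h, and Chil3 at 0, 0.11 and 0.141 CPM at 0 h and 80.5, 62.3, 94.3 and 20.3 CPM at 48 h. Each was higher in all injured sections, for Ccr2 and Plac8 (3.65 and 1.26, adjusted p = 4.4e-05 and 0.0016, respectively) and for Chil3 (adjusted p = 0.00026), as was Ly6c2 (1.36, adjusted p = 0.011, and 1.18, adjusted p = 0.051 without 0 h section 3), whose reads may be shared with Ly6c1. Lipid-associated macrophages, which take up debris, gave 19 rises of 26 (median 1.55). Trem2, their lipid-sensing receptor, was at 0.682, 1.34 and 1.07 CPM at 0 h and 39, 38.9, 76 and 51.6 CPM at 48 h. Gpnmb was at 0, 0.0736 and 0.0847 CPM at 0 h and 101, 106, 226 and 147 CPM at 48 h. Both separated fully (5.62, adjusted p = 2.3e-05 for Trem2 and adjusted p = 2.6e-06 for Gpnmb), and the tetraspanin Cd9 rose slightly (0.55, adjusted p = 0.027). The 4 that fell, Fabp5 (-2.31, adjusted p = 0.0049), Apoe (-0.82, adjusted p = 5.7e-05), Plin2 and Acp5 (-0.44, adjusted p = 0.0071, 0.09 under total-count scaling), include genes that hepatocytes also express, Apoe being at 21074 to 21874 CPM in uninjured liver. Markers of recruited monocytes summed to 20.5 to 28.9 CPM at 0 h and 95.2 to 168 CPM at 48 h, and those of lipid-associated macrophages to 96.7 to 112 CPM and 390.2 to 840.1 CPM, all 4 of each higher. The macrophage markers include Spp1, which is also among the cholangiocyte markers above. Calls lost without 1 section were Il18bp (without 0 h 2, 3 or 4 or 48 h C, adjusted p up to 0.079) and Cd9 (without 0 h 2, 3 or 4 or 48 h C or D, adjusted p up to 0.1).

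Neutrophil genes rose in 13 of 19 tested cases (median 3.52), while Ly6g, Camp, Ngp and Mpo did not pass the filter. S100a8 was at 1.06, 3.96 and 2.09 CPM at 0 h and 27.3, 25.8, 44.4 and 12.5 CPM at 48 h and S100a9, its partner in calprotectin, at 0.88, 3.64 and 2.74 CPM at 0 h and 30.5, 30.3, 56.8 and 15.7 CPM at 48 h. They rose together and least in section D (3.52 and 3.77, adjusted p = 0.0036 and 0.0017, respectively). The receptor Csf3r and the lectin Clec4d, which monocytes also express, rose (2.34 and 6.61, adjusted p = 0.00016 and 4.4e-05, respectively). The 5 neutrophil markers summed to 3.17 to 9.05 CPM and 35.5 to 113 CPM.

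Lymphocyte genes were low in both groups. Their list gave 1 rise and 5 falls of 28, beside 23.3% higher and 20.9% lower over all genes (median -0.14, 0.39 under total-count scaling). Cd8b1 and Ncr1 were below the filter. The list summed to 36.2 to 43.1 CPM at 0 h and 41.7 to 58.9 CPM at 48 h, with overlap. Cd4 (-1.24, adjusted p = 0.036), Cd3d (-0.98, adjusted p = 0.046), Nkg7 (-0.85, adjusted p = 0.0071), Ighm (-0.93, adjusted p = 0.02) and Trbc2 fell, Cd3e, at 0.226 to 0.331 CPM and 0.13 to 0.433 CPM, was not called (-0.22, adjusted p = 0.71), and Igkc, the κ light chain, rose (1.48, adjusted p = 0.0064). Markers summed to 4.84 to 7.54 CPM and 2.62 to 4.20 CPM for T and NK cells and to 11 to 13.6 CPM and 8.11 to 10.8 CPM for B and plasma cells. Dendritic cell genes rose in 8 of 15 cases, among them Irf8 (1.08, adjusted p = 0.00083) and Cd209a (1.48, adjusted p = 0.0022). The 4 dendritic cell markers summed to 1.58 to 1.86 CPM and 2.75 to 4.02 CPM. Itgae fell (-1.30, adjusted p = 0.016, and -1.0, adjusted p = 0.087 without 0 h section 2), and Xcr1 and Flt3 were not called (0.03 and 1.04, adjusted p = 0.96 and 0.069, respectively). Flt3 was called at 1.25 (adjusted p = 0.026) without 48 h section A. Antigen presentation genes fell more often than they rose, with 2 rises, Cd40 (1.22, adjusted p = 0.0016) and Cd80 (1.90, adjusted p = 0.0051), against 9 falls of 21 and a median of -0.24 that turned to 0.29 under total-count scaling. H2-Aa, an MHC class II chain, was at 62.2, 63 and 76.3 CPM at 0 h and 16.8, 16.5, 27.6 and 32.6 CPM at 48 h, and Cd74, its invariant chain, at 138, 157 and 203 CPM at 0 h and 40.3, 45.4, 71.4 and 100.2 CPM at 48 h. B2m, of class I, was at 2135, 1951 and 2031 CPM at 0 h and 1049, 1034, 1038 and 1365 CPM at 48 h. All 3 fell and kept their sign under total-count scaling (-1.52, -1.37 and -0.86, adjusted p = 0.0011, 0.004 and 0.0013, respectively). Single-section omission removed the calls of Cd4 (without 0 h 2, 3 or 4 or 48 h B, adjusted p up to 0.14), Cd3d (without 0 h 2, 3 or 4 or 48 h A, B or C, adjusted p up to 0.22) and Ighm (without 0 h 3 or 4, adjusted p up to 0.068).

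Interferon-stimulated genes, whose promoter element is shown above in Isg15, were called in few cases: 5 rose, namely Ifi27l2a (1.06), Oas1a (1.05), Mx1 (0.97), Oas2 and Irf1, and 4 fell, namely Ifit1 (-0.81), Ifi47, Irf9 and Irf7, of 37, below the background of 44.2%. Isg15 was at 43.6, 36.8 and 59.6 CPM at 0 h and 33.2, 63.1, 33.2 and 58.8 CPM at 48 h, and the groups overlapped (log2 fold change 0.01 ± 0.29, adjusted p = 0.98). Ifit3 was not called (-0.33, adjusted p = 0.43), and the list's median of -0.19 turned to 0.34 under total-count scaling. Mx2 was not analysed here. Calls lost without 1 section were Ifi27l2a (without 0 h 2, 3 or 4 or 48 h C or D, adjusted p up to 0.13), Mx1 (without 0 h 2 or 3 or 48 h B, adjusted p up to 0.097) and Ifit1 (without 0 h 3 or 4 or 48 h A, C or D, adjusted p up to 0.17).

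Chemokines moved in both directions. The list gave 14 rises and 5 falls of 29, against 23.3% and 20.9% of all genes. Ccl2, which recruits monocytes through CCR2, was at 2.66, 1.79 and 3.11 CPM at 0 h and 56.8, 65.9, 38 and 22.3 CPM at 48 h, and Ccl7, another CCR2 ligand, at 0.484, 0.423 and 0.819 CPM at 0 h and 39.1, 39.5, 29.5 and 17.8 CPM at 48 h. Cxcl1, which recruits neutrophils, was at 1.28, 1.29 and 1.27 CPM at 0 h and 37.3, 46.6, 26 and 7.92 CPM at 48 h. All 3 were higher and lowest in D among injured sections (4.20, 5.81 and 4.52, adjusted p = 6.5e-05, 1.9e-05 and 0.00045, respectively). Cxcl13, a B cell attractant (-2.75, adjusted p = 2.9e-05), Cxcl9, an interferon-γ-induced ligand of CXCR3 (-1.94, adjusted p = 0.012, and -1.37, adjusted p = 0.053 without 0 h section 4), Ccl25, Ccl27a and Cxcl12 fell, and Cxcl10 was not called (0.40, adjusted p = 0.51). Ccl11 was below the filter, and Cxcl11 was not analysed here.

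Lysosomal genes rose in 18 of 39 cases and fell in 2, Lamp2 (-0.73, adjusted p = 0.00044) and Gaa (-0.48, adjusted p = 0.0016, 0.05 under total-count scaling). Cd63 was at 11.2, 12.6 and 12.9 CPM at 0 h and 99.1, 87.7, 178 and 93.5 CPM at 48 h and Psap, prosaposin, at 365, 399 and 413 CPM at 0 h and 785, 683, 1176 and 956 CPM at 48 h. Both rose (3.23 and 1.20, adjusted p = 4.5e-05 and 0.00043, respectively), and Lamp1 was not called (0.07, adjusted p = 0.54). Mesothelium and portal fibroblast genes gave 6 rises of 14, but the defining markers Msln and Upk3b were not called (1.48 and 1.04, adjusted p = 0.29 and 0.46, respectively), nor was Mgp (-0.33, adjusted p = 0.63), and Clec3b was below the filter. Mesothelial markers summed to 0.810 to 3.33 CPM and 1.61 to 12 CPM, the highest being section C. Red cell genes, near-identical copies among them, followed 1 section. Hbb-bs was at 56.6, 820.2 and 42.8 CPM at 0 h and 185, 334, 153 and 253 CPM at 48 h (-0.41, adjusted p = 0.75), and without 0 h section 3 its log2 fold change was 2.21, adjusted p = 0.029. Hba-a1 behaved alike (-0.40, adjusted p = 0.75, and 2.08, adjusted p = 0.037 without that section). Alas2, the erythroid haem synthase, fell (-1.73, adjusted p = 0.0014) and Pf4, a platelet chemokine that macrophages also make, rose (4.11, adjusted p = 0.00032). The list's median of -0.40 was 0.10 under total-count scaling, and Slc4a1 and Gata1 were among those below the filter.

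Outside the lists, the 15 called genes with the largest rises at 10 CPM or more were Sprr1a, a cornified envelope protein of epithelia (12.3 to 157 CPM at 48 h, adjusted p = 0.00014), the glutathione transferase-like Gm3776 (7.01), Ly6d (6.90), Cpe (5.72), Pbk (4.81), Slpi (4.50), Pclaf (4.46), Sh3pxd2b (4.30), Afp (4.27), Emp1 (4.27), Lat2 (4.10), C5ar1 (3.74), Prtn3 (3.46), Cpxm1 (3.45) and Lilr4b (3.36). Ly6d, a surface protein of squamous epithelia and early B cells, was at 1.01, 2.15 and 1.19 CPM at 0 h and 143, 174, 230.3 and 157 CPM at 48 h. Afp, α-fetoprotein, the plasma protein of fetal liver, was at 1.08, 1.31 and 1.44 CPM at 0 h and 20.6, 26.7, 27.6 and 23.6 CPM at 48 h, tightly grouped and higher in every injured section (log2 fold change 4.27 ± 0.21, adjusted p = 1.9e-06). Slpi, a secreted protease inhibitor, was at 1.12, 0.663 and 4.07 CPM at 0 h and 57.1, 42.9, 54.2 and 14.7 CPM at 48 h (a log2 fold change of 4.50 ± 0.83, adjusted p = 0.0021), and Cpe, carboxypeptidase E, at 0.484, 0.166 and 0.367 CPM at 0 h and 18, 22.7, 19 and 10.7 CPM at 48 h (a log2 fold change of 5.72 ± 0.87, adjusted p = 0.00071). C5ar1 is the receptor of complement fragment C5a and Prtn3 a neutrophil serine protease, which ranged from 4.51 to 54.4 CPM among injured sections. Pbk and Pclaf, which are known from dividing cells, joined the cell cycle genes in their direction.

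The 15 largest falls outside the lists were Cyp2c69 (-9.01), Cyp2c40 (-7.19), Mup17 (-7.02), Gm32468 (-6.92), Mup1 (-6.17), Mup9 (-5.54), Mup10 (-4.32), Mup16 (-3.94), Mup11 (-3.82), Cabyr (-3.81), Mup14 (-3.70), Gm35986 (-3.64), Mup12 (-3.30), Mup18 (-3.26) and Mup7 (-3.21). Of these, 10 encode major urinary proteins, male-biased pheromone carriers that depend on growth hormone pulses. These are near-identical copies, as are the Cyp2c genes, so how reads were divided among them is uncertain. Mup7 was at 15909.7, 7201 and 16449 CPM at 0 h and 823, 1424, 1377 and 2063 CPM at 48 h and Mup17 at 2459, 1626 and 4599 CPM at 0 h and 11.1, 9.88, 15.4 and 52.9 CPM at 48 h. No injured section came near the uninjured values, and D was the highest of the 4 for both.

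**Figure D4:**
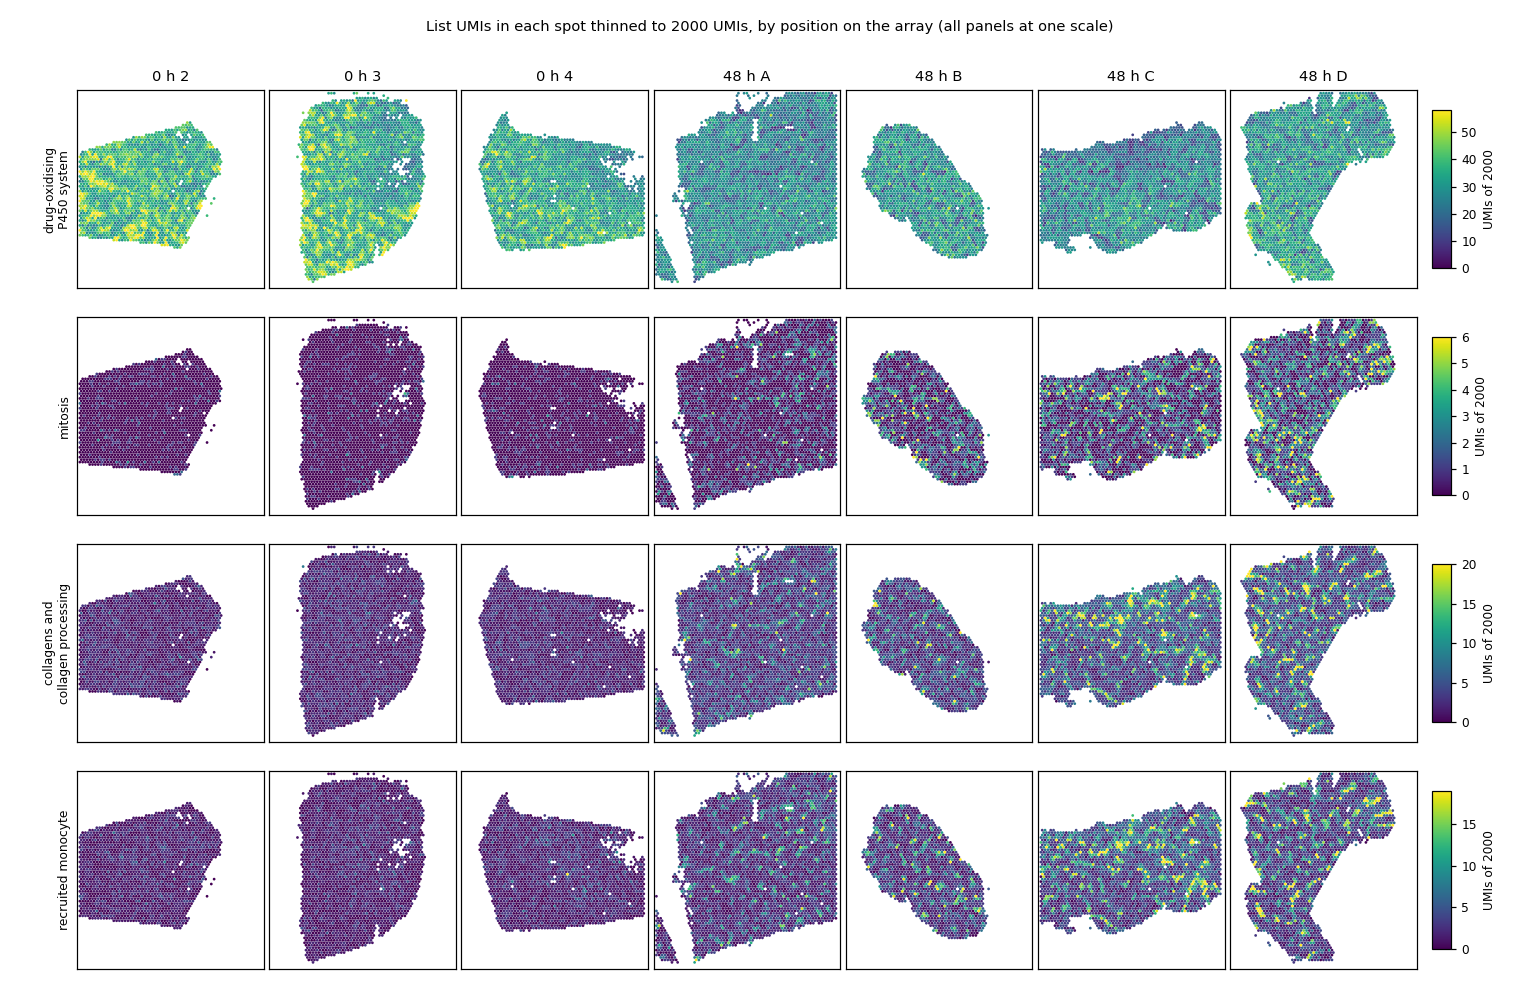
UMIs of 4 lists in each passing spot after thinning every spot to 2000 UMIs, drawn at the spots' positions on the array with 1 colour scale per list and all panels at the same scale. P450 genes form bright patches in the 3 uninjured sections and are dimmer in the 4 injured ones. In the injured sections, spots rich in mitosis, collagen and monocyte genes appear in scattered clusters.

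The arrangement over the tissue was described by summing each list in every spot after thinning to 2000 UMIs. A mitosis UMI was absent from 82.6% to 84.6% of spots in the uninjured sections, and from 58.9%, 38.3%, 35.3% and 25% of spots in injured sections A, B, C and D. UMIs of the list of collagens and their processing enzymes averaged 1.69 to 1.79 per spot at 0 h and 3.60 to 6.26 at 48 h. The top 5% of spots held at least 4 at 0 h and at least 9 to 18 at 48 h. This list summed to 1075 to 1145 CPM at 0 h, of which Col1a1 and Col3a1 were a small part. Recruited monocyte genes averaged 1.34 to 1.70 and 3.06 to 5.66 UMIs. Their list summed to 817 to 1034 CPM at 0 h and 1392 to 2440 CPM at 48 h over whole sections. The 4 monocyte markers made up only 20.5 to 28.9 CPM and 95.2 to 168 CPM. Its spot level is thus mostly that of other members and not of monocytes alone. P450 genes averaged 33.2 to 38.2 UMIs at 0 h and 24.6 to 29.8 at 48 h.

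Pearson's r between list levels across the spots of a section, on log(1 + UMIs), is given as a description. Spots of a section share a library and a fixed total of 2000 UMIs, so that more of an abundant list leaves less of the others. In uninjured liver r between the P450 and urea cycle lists, which mark opposite ends of the lobule, was -0.221 to -0.027. In injured liver it was 0.421 to 0.592, and both lists ran with the acute phase list (0.569 to 0.737 and 0.547 to 0.681), with which the urea cycle list was at 0.230 to 0.278 and the P450 list at -0.189 to 0.061 in uninjured liver. Against the hepatocyte lists stood the genes of repair: r between acute phase and actin genes was -0.259 to -0.102 at 0 h and -0.806 to -0.702 at 48 h.

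Within the second set, the list of collagens and their processing enzymes ran with actin genes at 0.451 to 0.628 and with recruited monocyte genes at 0.354 to 0.551 in injured sections. The values were 0.014 to 0.035 and -0.010 to 0.032 in uninjured ones. Mitosis followed actin genes at 0.361 to 0.490 and recruited monocyte genes at 0.284 to 0.387, where at 0 h neither pair exceeded 0.021. Mitosis averaged only 0.170 to 0.191 UMIs per spot at 0 h, against 0.619 to 1.76 at 48 h. Counting noise at that level holds r near 0 whatever the arrangement, so the 0 h values cannot show whether the arrangement differed. Sinusoidal endothelial genes, whose level was lower or near the median gene over whole sections, lay on the same side, at 0.307 to 0.394 with actin genes against 0.117 to 0.150 at 0 h. The lipid-associated macrophage list is mostly Apoe, which hepatocytes also express, at 21074 to 21874 CPM of 25179 to 25639 CPM for the list at 0 h and 11630.4 to 12424 CPM of 16613 to 18997 CPM at 48 h. Its spot level is thus not that of macrophages alone. The monocyte list shares 1 gene with the acute phase list and 1 with the list of lipid-associated macrophages.

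**Figure D5:**
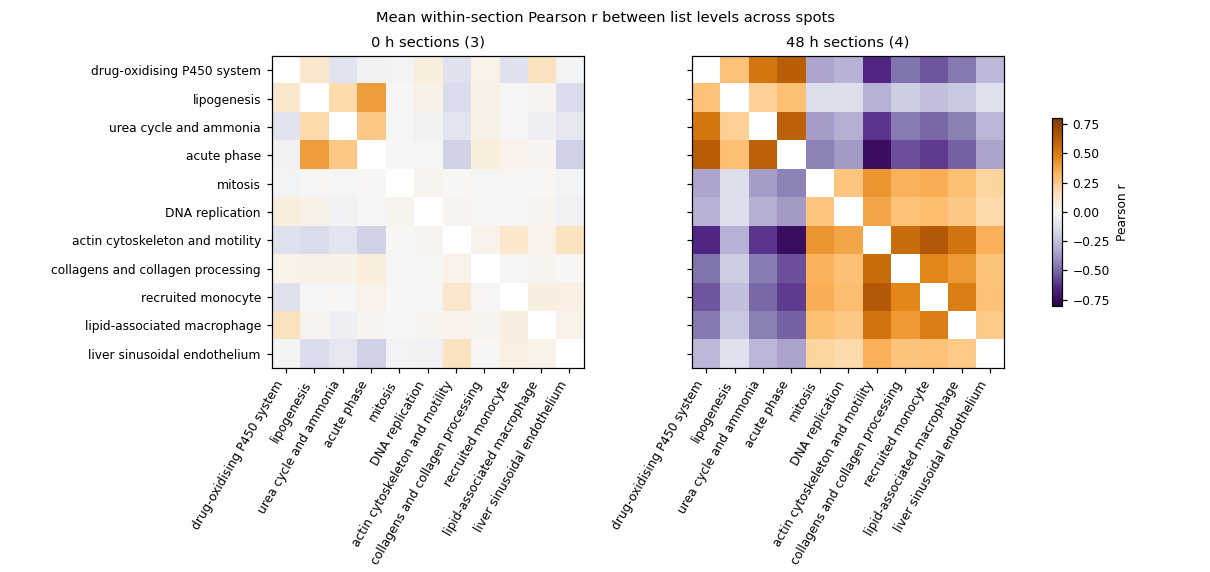
Mean over sections of Pearson's r across spots between the levels of 11 lists (log(1 + UMIs) of 2000), for the 3 uninjured (left) and the 4 injured sections (right); white diagonal cells are not values. At 48 h 4 hepatocyte lists and 7 lists of division, movement, matrix, phagocytes (1 of these lists mostly Apoe) and endothelium form a block each, with negative values between them, and at 0 h most cells are near 0.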

How the data were processed

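Spatial transcriptomes (Visium) of 11 liver sections of an acetaminophen time course were used, grouped by the time point in their labels. The authors deposited counts, whole UMIs per gene and spot, and the submitters' processing notes name Space Ranger 1.0.0, Seurat 4.1.1 and build mm10. No replicates were pooled in these files. Counts of 31053 genes were summed per section over spots under tissue with at least 800 genes and at most 20% mitochondrial UMIs, giving 43600556 to 67045372 UMIs in the 7 sections compared.

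All 11 sections were fitted with edgeR 4.0.16 (R 4.3.3), using TMM scaling, filterByExpr by time point and the robust quasi-likelihood test, and 48 h was contrasted with 0 h. Genes were called at a Benjamini-Hochberg adjusted p under 0.05, over 14821 genes. Alternatives were total-count and RLE scaling, no low-count filter, the 7 sections alone, all tissue spots, DESeq2 1.42.0 and leaving out each section. The fit was also run on simulated counts in which few genes changed, in equal numbers up and down. That setting differs from these sections, so the run does not test the choice of scaling.

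The comparison and the 61 gene lists were chosen with earlier results of these data known. Each list is given by its counts and median. Genes named were fixed anchors of each list, the called members with the largest rise and fall at 10 CPM or more, and the 15 largest rises and falls outside the lists. A further 44 genes were named after their values were seen, and some genes that this rule names are not reported here. Cell types were checked by 15 marker lists. For correlations across spots, each spot was thinned to 2000 UMIs (alternative, 4000), and Pearson's r is given as a description. Overlaps with neighbouring genes came from a GENCODE annotation of the same genome, and promoter sequences from RefSeq.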

Additional observations from a re-analysis of the deposited data

Results flagged for a closer look

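At 48 h, 30 of the 318 genes described had 1 section whose distance to its nearest neighbour, divided by the range of the 4 sections, exceeded Dixon's 95% critical value for 4 values. Over all genes tested the share was 5.64%, and chance alone gives about 1 gene in 20. The 0 h group, with 3 sections, was not examined in this way. Each value below is the CPM of the section that stood apart, with the lowest and highest of the other 3.

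Section D was high in major urinary proteins secreted by hepatocytes, with Mup17 at 52.9 CPM against 9.88 to 15.4, Mup1 at 53 CPM against 6.15 to 13, Mup10 at 58.7 CPM against 4.69 to 12.7 and Mup16 at 69 CPM against 33.3 to 38.3. Mup genes are near-identical copies that share reads, so their values are not independent of each other. Section D was also high in the hepatocyte genes Mbl2, at 190.1 CPM against 111 to 121, and Cyp3a11, at 1361 CPM against 292 to 445. Hepatocyte lists went both ways in D by their median log2 ratio to the 0 h mean. D was the highest injured section for the P450 system (-0.87) and growth hormone targets (-0.83). It was the lowest for the urea cycle list (-0.75), amino acid catabolism (-0.79) and bile acid genes (-0.76). The small heat shock protein and the class I light chain were high there as well, with Hspb1 at 145 CPM against 31.4 to 32.7 and B2m at 1365 CPM against 1034 to 1049, as were Cabyr at 2.17 CPM against 0.242 to 0.502 and Gm32468 at 0.477 CPM against 0.101 to 0.143, both near the lower end of the CPM range. Low in section D were the nucleolar chaperone, the monocyte surface protein and the aryl hydrocarbon receptor, with Npm1 at 118 CPM against 139.5 to 142, Ly6c2 at 2.98 CPM against 5.22 to 5.52 and Ahr at 15.1 CPM against 25.8 to 26.5.

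Section A was low in genes of S phase and its entry, with Ccne1 at 4.76 CPM against 6.76 to 7.02, Pcna at 42.4 CPM against 55.3 to 55.7 and Rrm2 at 12.4 CPM against 23.6 to 24.8. It was also low in Nop56 at 24.2 CPM against 27.1 to 27.5 and Cyr61 at 6.73 CPM against 13.3 to 14.2, a nucleolar protein and a YAP target. Cytochromes P450 and a subunit of ATP synthase were high in section A, with Cyp4a14 at 189 CPM against 13.2 to 27.5, Cyp2c38 at 2.77 CPM against 0.832 to 1.07 and Atp5b at 1036 CPM against 817 to 841.

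Section C was high in genes of phagocytes and lysosomes, with Clec4d at 21.9 CPM against 13.3 to 14.6, Cd63 at 178 CPM against 87.7 to 99.1 and Lat2 at 18.4 CPM against 11.1 to 12.2. A mesothelial gene stood out there too, with Upk3b at 4.16 CPM against 0.403 to 0.910. So did Emp1 at 33.5 CPM against 21.3 to 21.5 and Acvr2b at 1.15 CPM against 0.724 to 0.785, a membrane protein and an activin receptor, while a proteasome subunit was low, with Psma1 at 123 CPM against 134 to 136. Section B stood apart in 2 genes, with Tm7sf2 at 32.4 CPM against 43.3 to 45.4 and Itgae at 0.705 CPM against 0.347 to 0.402, a sterol reductase and an integrin chain. Which feature of a section its values follow was not tested.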

How the results depend on the processing

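Scaling moved the split of calls most. With division by the total count and no further factor, 8920 genes were called higher and 599 lower, against 3451 and 3101. Scaling by relative log expression, DESeq2, all tissue spots, no low-count filter and a fit of the 7 sections alone gave 6271 to 7216 calls against 6552. Leaving out 1 section at a time gave 4926 (without 0 h replicate 3) to 6104 (without 48 h replicate A), with 2639 to 3261 higher and 2287 to 2843 lower. Of 4128 log2 fold changes of the 318 named genes under 13 alternatives, 3784 kept their direction and side of the threshold, 237 lost the call, 47 gained one and 60 changed sign. No paired analysis was possible because the 0 h sections are numbered and the 48 h sections lettered, so the groups share no replicate number.

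Under total-count scaling the sign of 12 called genes turned, and their log2 fold changes, all below 0 in the analysis reported, became Igf1 0.016, Arntl 0.0031, Psma1 0.16, Psmb5 0.11, Lats1 0.15, Gapdh 0.066, Pgk1 0.15, Fga 0.10, Fgg 0.13, Crp 0.17, Acp5 0.088 and Gaa 0.047. So did the sign of 26 uncalled genes, at Hnf4a 0.25, Sult1a1 0.34, Ass1 0.17, Arg1 0.34, Socs2 0.18, Per1 0.052, Fgb 0.33, Cebpb 0.14, Gclc 0.34, Hspa8 0.23, Slc40a1 0.31, Rplp0 0.31, Rpl3 0.31, Rps6 0.17, Psmd1 0.21, Met 0.097, Reln 0.31, Stab2 0.33, Lyve1 0.48, Wnt2 0.18, Clec4f 0.21, Cd3e 0.30, Ifit3 0.19, Mgp 0.19, Hbb-bs 0.094 and Hba-a1 0.10. These shifts are of the size by which that scaling moved the median gene. When 1 section was left out, the sign of 16 genes, none of them called, changed within the ranges Axin2 (-0.0038 to 0.18), Cps1 (-0.031 to 0.18), Arg1 (-0.35 to 0.0056), Cyp4a14 (-1.05 to 1.04), Socs2 (-1.54 to 0.28), Hspb1 (-0.091 to 1.03), Cdkn1a (-0.17 to 0.99), Fst (-0.25 to 0.40), Mmp14 (-0.18 to 0.27), Krt19 (-0.044 to 0.53), C1qa (-0.049 to 0.23), Xcr1 (-0.095 to 0.035), Isg15 (-0.16 to 0.22), Upk3b (-0.28 to 1.63), Hbb-bs (-0.93 to 2.21) and Hba-a1 (-0.91 to 2.08). The cause of these was not tested. List medians changed sign for 16 of 61 lists under total-count scaling, for 2 without 0 h replicate 3 and for 1 without 48 h replicate D. With spots thinned to 4000 rather than 2000 UMIs, 54 of 55 correlations between lists moved by more than 1 SD over sections and none changed sign.

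Depth limits the genes near 1 CPM, such as Itgae and Gm32468, where a section holds few molecules. The methods list 1 liver per time point, so differences between mice are not part of any error given here. The signal of a gene with near-identical copies or an overlapping neighbour was not separated from that of the other.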
